A study of Mus musculus with 6 samples.

Results

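Cytochrome P450 genes were followed in colon tumors of mice given azoxymethane, a carcinogen. The members were all genes whose symbol in the probe annotation had the form Cyp, a number, a letter and a number, plus *Cyp51*, which gave 82 of 19057 named genes and 124 of 45281 probes. Of these, 48 probes of 35 genes were bright enough to be tested between the genotypes. RNA came from colon tumors of 3 mice labelled WT and 3 labelled Chrm3-/-, with 1 Illumina BeadChip array per mouse. Chrm3-/- mice lack the M3 muscarinic acetylcholine receptor in the whole body, so the deletion is not limited to the tumor. Both genotypes were males of the mixed strain 129S6/SvEvTac X CF1 and had received azoxymethane at 10 mg per kg weekly for 6 weeks from 6 weeks of age. By the methods the mice were killed 20 weeks after the first injection, and the labels give their age as 7 months. Each tumor is a mixture of cells, so fewer cells of a type and less RNA per cell cannot be told apart. No untreated colon was analysed here, and the arrays read finished tumors rather than the tissue at the time of the injections.

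P450 enzymes are heme proteins that put 1 atom of oxygen into a substrate, with electrons passed on by a reductase in the endoplasmic reticulum or by a ferredoxin in mitochondria. Families Cyp1 to Cyp3 are known for the oxidation of drugs and carcinogens, Cyp4 for fatty acids and leukotrienes, and most other families for sterols, bile acids, steroid hormones and vitamins. Azoxymethane itself is not reactive, and *Cyp2e1*, which is most abundant in liver, is the P450 known to hydroxylate it on the way to its DNA-methylating form. The intestinal epithelium has P450 enzymes of its own, of which *Cyp2c55* and *Cyp2s1* are examples.

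Promoters of 4 genes are shown because *Cyp2e1* is the gene that bears on the carcinogen and because *Cyp2c55*, *Cyp2c65* and *Cyp2c67* were high together on a single array. They and the motifs were chosen after the values and the sequences had been seen. The letters are the 150 bases before the RefSeq start of each gene in GRCm38.p6, 5′ to 3′ on the gene's strand. They lie at chr7:140763669-140763818 on the plus strand for *Cyp2e1*, chr19:39006869-39007018 on the plus strand for *Cyp2c55*, chr19:39060856-39061005 on the plus strand for *Cyp2c65*, and chr19:39649043-39649192 on the minus strand for *Cyp2c67*. Capitals mark TATAAA, the usual TATA box, and CAAAGTCCA, a sequence known to be bound by the nuclear receptor HNF4.
Cyp2e1: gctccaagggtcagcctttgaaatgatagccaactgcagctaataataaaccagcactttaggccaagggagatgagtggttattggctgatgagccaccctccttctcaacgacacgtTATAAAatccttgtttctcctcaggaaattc
Cyp2c55: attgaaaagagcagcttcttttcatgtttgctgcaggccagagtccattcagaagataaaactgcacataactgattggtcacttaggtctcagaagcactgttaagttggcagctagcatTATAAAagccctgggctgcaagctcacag
Cyp2c65: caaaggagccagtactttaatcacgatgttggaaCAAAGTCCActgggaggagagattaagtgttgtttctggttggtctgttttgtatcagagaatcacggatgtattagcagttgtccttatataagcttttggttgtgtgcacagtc
Cyp2c67: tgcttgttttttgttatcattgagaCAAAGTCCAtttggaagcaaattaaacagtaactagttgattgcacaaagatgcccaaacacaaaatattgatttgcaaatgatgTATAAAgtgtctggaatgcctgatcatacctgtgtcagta
The TATA box began 31 bases before the start in *Cyp2e1*, 29 bases before it in *Cyp2c55* and 40 bases before it in *Cyp2c67*. Only exact matches were marked: *Cyp2c65* has no TATAAA but holds the similar letters tatataag, left in lower case. The HNF4 sequence began 116 bases before the start in *Cyp2c65* and 125 bases before it in *Cyp2c67*. Promoter entries were found for 62 of the 82 P450 genes. With both strands of the 150 bases before the start searched, CAAAGTCCA was present in 8 of the 62 genes (12.9%) and in 87 of all 27025 genes (0.322%). The 8 genes were *Cyp2c40*, *Cyp2c65*, *Cyp2c67*, *Cyp2c68*, *Cyp2c70*, *Cyp3a11*, *Cyp3a16* and *Cyp8b1*. It was in 0 of the 16 P450 genes with a promoter entry that gave signal on all 6 arrays and in 5 of the 20 that gave none. TATAAA was in 20 of the 62 genes (32.3%) against 8.89% of all genes, CCAAT in 20 (32.3%) against 27.7%, and GCGTG, the core of the Ah receptor site, in 11 (17.7%) against 22.9%. CCAAT can overlap the end of CAAAGTCCA. These matches are descriptions of letters, and neighbouring copies such as the Cyp2c genes are not independent of each other.

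The authors' intensities had the same set of values on all 6 arrays. Of all values, 46.1% were under 2 and evenly spaced, so these stand for ranks and are given here as "under 2", meaning not above background. Correlations between arrays, on log2(value + 50) over all probes, were 0.982 to 0.986 among the arrays labelled WT and 0.916 to 0.973 among those labelled Chrm3-/-, and replicate 1 of the latter stood apart, with at most 0.95 against any other array, where each other array reached at least 0.973. *Chrm3* itself, the targeted gene, went against the labels: its single probe read 9.06, under 2 and under 2 on the arrays labelled WT and 25.1, 32.1 and 21.9 on those labelled Chrm3-/-. No source used here tells whether this probe lies within what was deleted, so it does not check the genotypes, and all directions are those of the labels. Of the 10 colon epithelium markers, 8 were above background on all 6 arrays, with summed intensities of 26909 to 33810 in the arrays labelled WT and 29078 to 38470 in those labelled Chrm3-/-. *Epcam*, a defining epithelial marker, was dim at its probe, with 8.67, 11.1 and 12.1 in arrays labelled WT and under 2, under 2 and 2.03 in those labelled Chrm3-/-.

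Most P450 genes gave little or no signal in the tumors. A probe read 2 or more on all 6 arrays for 21 of the 82 genes, on some arrays for 33 and on no array for 28. The mean intensity of the brightest probe reached 100 for 15 genes. Since probes differ in how they bind, levels are compared between arrays for a gene and not between genes. A probe under 2 limits only what that probe could read. Near-identical copies in the Cyp2b, Cyp2c, Cyp2d, Cyp3a and Cyp4f groups may share a probe's signal, and the probe sequences were not analysed here, so single genes of these groups are uncertain.

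Among families, Cyp4 had signal on all arrays for 6 of 13 genes and Cyp2 for 7 of 43. Within Cyp2, the Cyp2d group had 4 of 8 genes on all arrays and the other 4 on some. The Cyp2c group had 1 of 13 on all arrays, 6 on some and 6 on none, and the Cyp2j group had 3 of 7 on some and 4 on none. In Cyp3, *Cyp3a13* was above background on all arrays, and the other 5 genes, the main liver forms *Cyp3a11* and *Cyp3a25* among them, were under 2 throughout. In Cyp4, the Cyp4f group had 5 of 8 genes on all arrays and 3 on some, whereas both Cyp4a genes with a probe, *Cyp4a14* and *Cyp4a31*, were under 2 on all. The enzymes of bile acid synthesis in liver split as well: *Cyp7a1*, its rate-limiting enzyme, and *Cyp8b1* were under 2 on every array, while *Cyp27a1*, *Cyp7b1* and *Cyp39a1* were above 2 on every array.

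**Figure D1:**
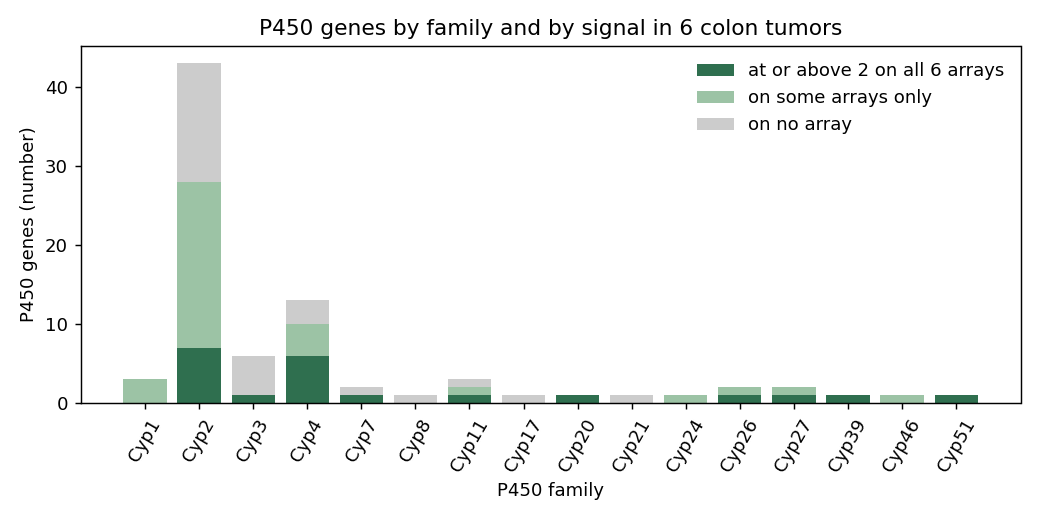
Number of P450 genes in each family (bars), divided by whether any probe of the gene read 2 or more on all 6 arrays, on some arrays or on none. Cyp2 holds 43 genes, of which 7 were on all arrays, and Cyp4 holds 13, of which 6 were.

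*Cyp2e1*, the enzyme that activates azoxymethane, was near or under background in most tumors. Its single probe read under 2, 160 and under 2 on the arrays labelled WT and under 2, 15.7 and under 2 on those labelled Chrm3-/-. Replicate 2 of each genotype thus carried all of its signal, and the groups overlapped. The log2 fold change, Chrm3-/- over WT on log2(value + 50), was -0.55 (limma standard error 0.53, adjusted p = 0.991). Without WT replicate 2 it turned to 0.12. Of the 8 listed hepatocyte markers, 7 had a probe, of which *Alb* and *Fgb* were under 2 on every array and 1, *Ttr*, was above 2 on every array. *Ttr*, a carrier of thyroid hormone, read 343, 1994 and 786 in arrays labelled WT and 1875, 8245 and 1917 in those labelled Chrm3-/-, so it too was highest on replicate 2 of each genotype. *Apoa1* read 47.96 on Chrm3-/- replicate 2, *Ahsg* 71.5 on WT replicate 1 and *Serpina1a* 49.3 on Chrm3-/- replicate 1. Summed over the list, intensities were 423, 2003 and 806 in WT and 1942, 8303 and 1934 in Chrm3-/- by label, nearly all of it from *Ttr*, and the part of hepatocyte RNA in the *Cyp2e1* values was not tested. The summed intensity of 6 adipocyte markers was 12.04 to 18.1 over all arrays.

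The Cyp1 genes, which the Ah receptor controls and which oxidize polycyclic hydrocarbons, were at or near background on most arrays. *Cyp1a1* was under 2 on 5 arrays and read 2.51 on the array labelled Chrm3-/- replicate 3, where *Cyp1a2* read 4.32, its only value above 2. *Cyp1b1* read 27.7, under 2 and under 2 in arrays labelled WT and 15.2, 5.54 and under 2 in those labelled Chrm3-/-. *Ahr*, the receptor, was under 2 on 5 of 6 arrays, and *Tiparp*, one of its targets, was under 2 on all. The other 4 genes of that pathway list with a probe were above 2 on all 6 arrays: *Arnt*, the partner of the receptor, read 234 to 312, and the targets *Ahrr*, *Nqo1* and *Aldh3a1* read 4.17 to 28.5, 38.0 to 245 and 4.53 to 125, each highest on Chrm3-/- replicate 1.

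*Cyp2b10*, the classic target of the nuclear receptor CAR, had the most negative fold change among the tested P450 probes. It read 89.3, 514 and 20.4 in the arrays labelled WT and under 2, 36.8 and 38.9 in those labelled Chrm3-/-. Replicate 2 of WT was again the high array, and the groups overlapped. Its log2 fold change was -1.27 (limma standard error 0.72, adjusted p = 0.991) and ranged from -1.93 to -0.43 when arrays were left out in turn. The second *Cyp2b10* probe was under 2 on 5 arrays and read 8.16 on the WT replicate 2 array. *Cyp2b23*, a neighbour in the Cyp2b group, read 35.8, 64.9 and 3.79 in WT and 4.85, 3.34 and 12.1 in Chrm3-/- by label, with -0.52 on the log2 scale (limma standard error 0.26, adjusted p = 0.991). *Nr1i3*, which encodes CAR, read 7.33, 13.1 and 7.34 against 9.88, under 2 and 12.8.

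*Cyp2c55*, known in mouse colon for the hydroxylation of arachidonic acid, had the largest positive fold change, and a single array carried it. It read under 2, 32.4 and 57.9 in the arrays labelled WT. In those labelled Chrm3-/- it read 6771 in replicate 1, 21.5 in replicate 2 and 161 in replicate 3. Over all arrays this came to 2.60 on the log2 scale (limma standard error 1.54, adjusted p = 0.991), and 0.67 (standard error 0.50) without replicate 1. *Cyp2c67*, a fatty acid epoxygenase and hydroxylase, read under 2, 74.1 and 36.2 in WT and 652, 43.2 and 63.1 in Chrm3-/- by label. Its log2 fold change of 1.25 (standard error 0.78) became 0.32 without replicate 1. A second *Cyp2c67* probe read at most 2.69 on any array. *Cyp2c65*, an intestinal enzyme of the same cluster, was the third: its brightest probe read under 2, 3.61 and 7.61 in WT and 177, under 2 and 8.08 in Chrm3-/-, and each of the other 3 probes was also highest on Chrm3-/- replicate 1, at 86.3, 60.2 and 39.5. Its log2 fold change was 0.70 (standard error 0.53), and 0.02 without that array. *Cyp2c29*, *Cyp2c38*, *Cyp2c39*, *Cyp2c40*, *Cyp2c50* and *Cyp2c68* were under 2 on all arrays, replicate 1 included.

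Of the Cyp2d group, *Cyp2d9*, known in male mouse liver for testosterone hydroxylation, read 26.0, 52.8 and 44.4 in arrays labelled WT. In those labelled Chrm3-/- it read 545, 19.0 and 107, and the log2 fold change of 1.04 (standard error 0.71) became 0.21 without replicate 1. *Cyp2d34* read 39.9, 81.5 and 198 against 503, 37.3 and 117. *Cyp2d22*, which metabolizes drugs, read 76.4, 128 and 117 against 350, 82.1 and 115, and a dimmer probe of it stayed at or below 3.89. *Cyp2d10* read 40.5, 113 and 88.8 against 172, 71.3 and 94.1. Each of these 4 genes was highest on the array labelled Chrm3-/- replicate 1, and the log2 fold changes of *Cyp2d34* (0.48) and *Cyp2d22* (0.40) turned to -0.25 and -0.08 without it. *Cyp2s1*, an extrahepatic P450 of epithelia, behaved likewise, with 33.5, 89.5 and 100 in WT and 533, 13.8 and 102 in Chrm3-/- by label. Its log2 fold change was 0.56 (standard error 0.75) with all arrays and -0.29 without replicate 1.

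*Cyp3a13*, the one Cyp3 gene with signal, read 127, 173 and 314 in arrays labelled WT and 1182, 58.3 and 230 in those labelled Chrm3-/- at its brightest probe. Replicates 1 and 2 of Chrm3-/- were the highest and the lowest of the 6 arrays. The second probe read 27.7, 76.0 and 137 against 643, 22.5 and 70.5, and the third 2.12, 15.5 and 33.3 against 125, 2.01 and 18.1, so all 3 probes put the same arrays at both ends. The low end of the third probe is not clear, since 2.01 and 2.12 are both near background. At the brightest probe the log2 difference was 0.46 (limma standard error 0.83, adjusted p = 0.991) with all arrays and -0.48 without replicate 1. *Nr1i2*, which encodes PXR, a regulator of Cyp3a genes, read 32.3, 75.5 and 125 in WT and 185, 48.9 and 79.5 in Chrm3-/- by label.

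**Figure D2:**
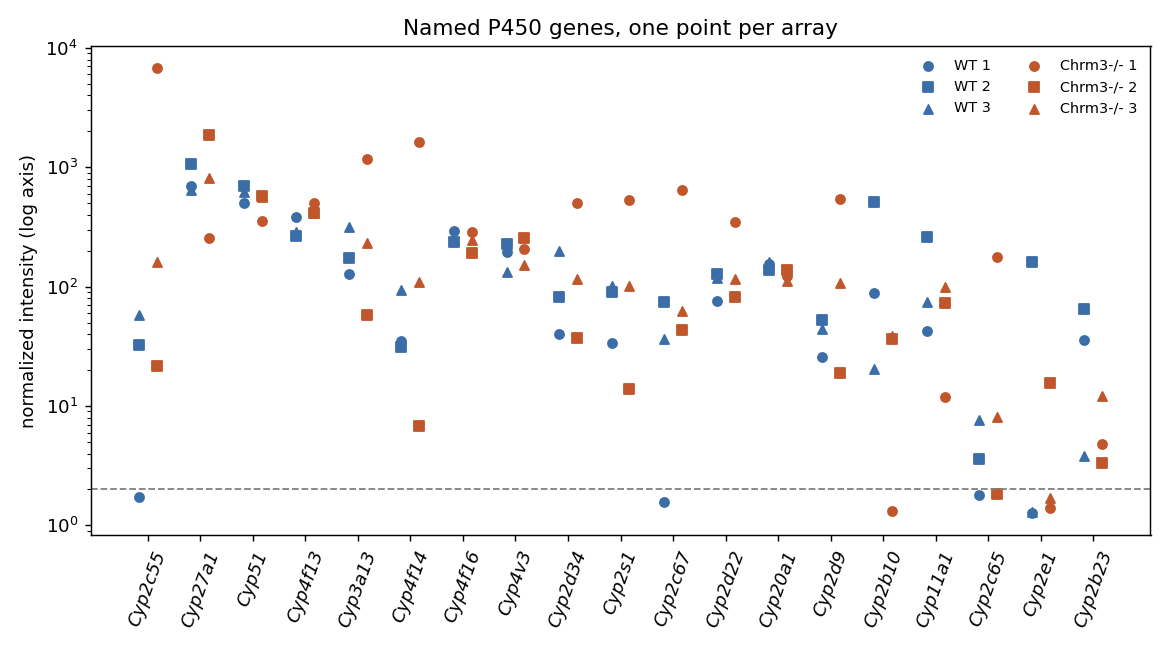
Normalized intensity (log axis) of the brightest probe of each named P450 gene, with 1 point per array; blue points are arrays labelled WT and orange points arrays labelled Chrm3-/-, and shapes give the replicate. Points under the dashed line at 2 are not above background and have no order; *Cyp2c55* reads 6771 on Chrm3-/- replicate 1 and at most 161 elsewhere.

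In the Cyp4 family, *Cyp4f14*, a hydroxylase of leukotriene B4 and vitamin E, had the second-largest positive fold change, and replicate 1 again stood far above the rest. It read 34.8, 31.2 and 93.0 in arrays labelled WT and 1618, 6.81 and 109 in those labelled Chrm3-/-. Its log2 fold change, 1.31 (limma standard error 1.13, adjusted p = 0.991), became -0.07 without that array. *Cyp4f18*, known for leukotriene hydroxylation in neutrophils, read 22.6, 26.4 and 14.3 against 108, 3.72 and 44.0. *Cyp4f40* read 30.3, 52.5 and 74.0 against 105, 16.8 and 43.4.

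Other Cyp4 genes were steadier. *Cyp4f13*, of the same group of fatty acid hydroxylases, read 387, 265 and 289 in arrays labelled WT and 499, 415 and 418 in those labelled Chrm3-/-. All 3 Chrm3-/- values lay above all 3 WT values, with a mean of 314 ± 64.6 (SD, n = 3) against 444 ± 47.3 (SD, n = 3). The log2 fold change was 0.45 (standard error 0.19), the limma p of 0.052 was the smallest of any P450 probe, and the adjusted p was 0.991. Between 0.36 and 0.59 was found whichever array was left out. *Cyp4f16* read 291, 235 and 245 against 289, 192 and 245, a log2 fold change of -0.08 (standard error 0.20). Its dimmer probes, at 72.0 to 96.4 and 71.4 to 88.7 in WT, differed from the brightest in putting Chrm3-/- replicate 1 highest, at 147 and 143. *Cyp4v3*, a fatty acid hydroxylase, read 195, 230 and 131 against 207, 258 and 151, a log2 fold change of 0.12 (standard error 0.25).

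Among sterol enzymes, *Cyp27a1*, the mitochondrial enzyme that hydroxylates the cholesterol side chain, read 691, 1076 and 640 in arrays labelled WT. In those labelled Chrm3-/- it read 257, 1855 and 820, so here replicate 1 was the lowest array and replicate 2 the highest. The other 2 probes gave the same order at both ends, with 163 and 83.9 on replicate 1 and 1831 and 1115 on replicate 2. The log2 fold change was -0.06 (standard error 0.62) with all arrays and 0.63 (standard error 0.37) without replicate 1. *Cyp51*, the lanosterol demethylase of cholesterol synthesis, read 505, 694 and 625 in WT and 353, 579 and 564 in Chrm3-/- by label, a log2 fold change of -0.28 (standard error 0.23) that was -0.07 without replicate 1. *Cyp7b1*, an oxysterol hydroxylase, read 56.8, 45.4 and 52.9 against 94.4, 11.8 and 37.2. *Cyp39a1*, which also acts on oxysterols, read 44.2, 53.2 and 52.5 against 56.0, 33.7 and 51.7, and its second probe at most 2.16.

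*Cyp11a1*, which cuts the cholesterol side chain in the first step of steroid synthesis, read 42.5, 262 and 74.2 in arrays labelled WT and 11.98, 72.7 and 99.96 in those labelled Chrm3-/-. Replicate 2 of WT was the high array, and the log2 difference was -0.55 (limma standard error 0.52, adjusted p = 0.991), or -0.91 to -0.04 as arrays were left out. A second, dimmer *Cyp11a1* probe went the other way, with under 2, 2.41 and 11.4 against 8.56, 3.59 and 12.3. Its log2 difference was 0.08 (limma standard error 0.10, adjusted p = 0.991). The third probe read at most 3.78. Later enzymes of steroid synthesis were dim: *Cyp11b1*, *Cyp17a1* and *Cyp21a1* were under 2 on every array. *Cyp11b2*, the aldosterone synthase, read 9.86, under 2 and 6.66 in arrays labelled WT and 2.53, 2.205 and 3.23 in those labelled Chrm3-/- at its brighter probe, and its other probe was under 2 on all. The summed intensity of 5 adrenal and gonad markers was 6.17 to 13.5. *Cyp20a1*, whose substrate is not known, read 156, 139 and 160 in WT and 122, 137 and 112 in Chrm3-/- by label, without overlap. The means were 152 ± 11.1 and 124 ± 12.5 (SD, n = 3 each), and the log2 difference was -0.22 (limma standard error 0.17, adjusted p = 0.991). Its other probe read 18.4, 28.0 and 44.7 against 24.4, 41.6 and 27.3, with overlap.

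The vitamin enzymes were also dim. *Cyp24a1*, which inactivates vitamin D, read 7.82, under 2 and 5.76 in arrays labelled WT and 9.44, under 2 and 5.51 in those labelled Chrm3-/-. *Cyp27b1*, which activates vitamin D, was above 2 on WT replicate 3 only, at 5.24. *Vdr*, the vitamin D receptor, read 121, 223 and 296 against 1203, 55.2 and 380. The retinoic acid hydroxylase *Cyp26a1* read 2.44 to 13.8 over the 6 arrays.

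Across all tested P450 probes, none passed. In limma with Benjamini-Hochberg adjustment over all 22641 tested probes, 0 of the 48 had an adjusted p under 0.05, where 28 of all tested probes did, 0.124%. At an unadjusted p under 0.05 the count was 0 of 48, where 4.82% of all tested probes passed, and the unpaired test of the methods on the same values gave 1, *Cyp20a1*, at an unadjusted p of 0.0461 and an adjusted p of 0.899. The arrays of the genotypes did not overlap on 2 of the 48 probes, those of *Cyp4f13* and *Cyp20a1*, where 10.7% of all tested probes did not. Log2 fold changes were above 0 for 29 probes and below 0 for 19, with a median of 0.10 against 0.01 for all tested probes. The median standard error of a single P450 probe was 0.30, against 0.19 for all tested probes, so a typical P450 probe was estimated less precisely. It does not give the precision of the median fold change. Without Chrm3-/- replicate 1, 16 were above 0 and 32 below, the median was -0.05, and 19 of the 48 had changed sign, 16 of them from above to below.

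**Figure D3:**
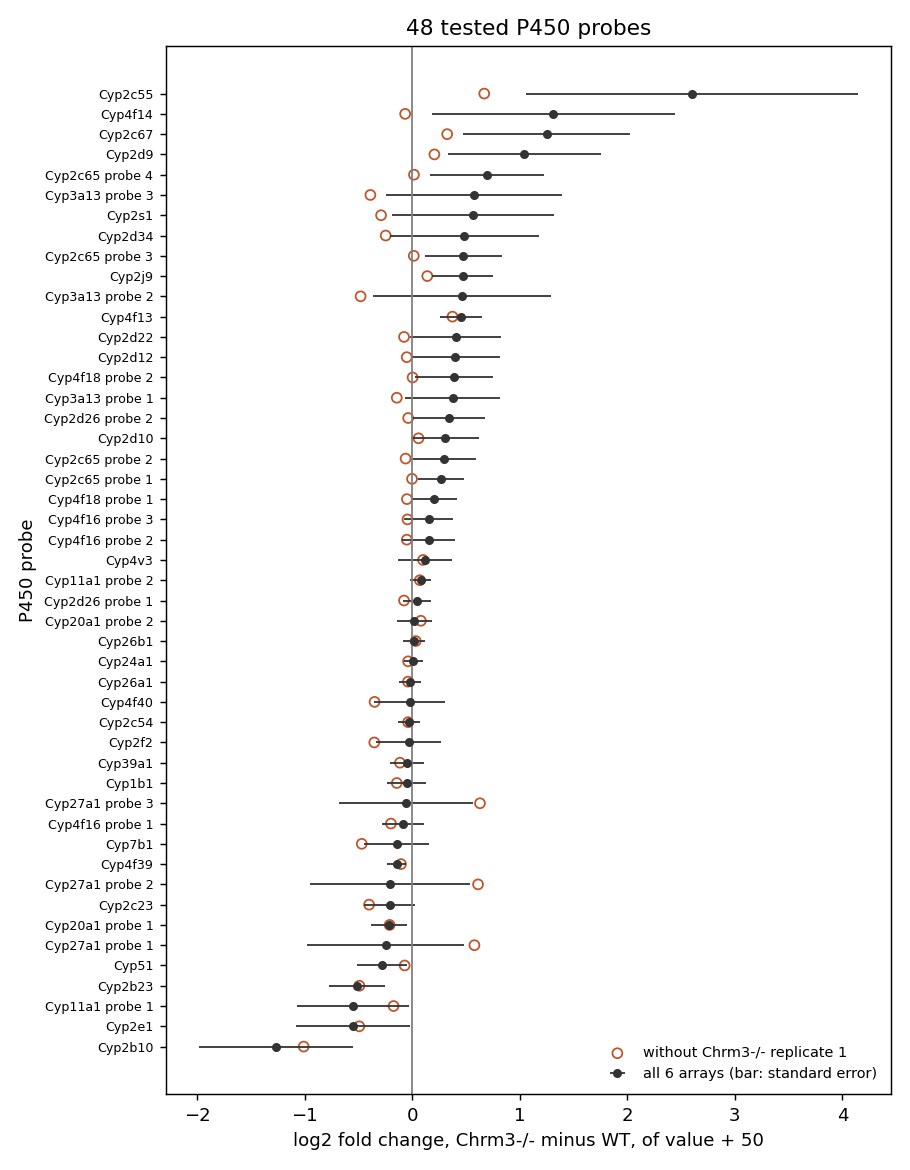
Log2 fold change, Chrm3-/- over WT by label on log2(value + 50), of the 48 tested P450 probes (filled points, bars of 1 standard error) and the same without Chrm3-/- replicate 1 (open circles); the vertical line is no change. The open circles of *Cyp2c55*, *Cyp4f14*, *Cyp2c67* and *Cyp2d9* lie at 0.67, -0.07, 0.32 and 0.21, against 2.60, 1.31, 1.25 and 1.04 with all arrays.

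The spread of P450 values thus lay between arrays within a genotype. The array labelled Chrm3-/- replicate 1 was the highest of the 6 on 29 of the 48 tested P450 probes (60.4%, against 24.4% of all tested probes). On 19 of these it was at least 2-fold above the next array, with a median ratio of 3.12 over the 29 and a highest of 42.1. The array labelled Chrm3-/- replicate 2 was the lowest on 20 of the 48 (41.7%, against 20.9% of all tested probes), and on 18 probes both held at once. The counts of lowest arrays also rank values under 2, which have no order, so they are uncertain. On *Cyp2f2* and *Cyp24a1*, for example, replicate 2 and a WT array were both under 2. Replicate 1 was also the lowest on 7 probes (14.6%, against 29.9% of all tested probes), those of *Cyp27a1*, *Cyp51* and *Cyp2b10* among them. These counts take each probe on its own, so 4 probes of *Cyp2c65* and 3 of *Cyp3a13* entered separately. Probes were kept by their mean over all 6 arrays, so a high value on Chrm3-/- replicate 1 alone could bring a probe in. A *Cyp2c65* probe read 39.5 there and under 2 on every other array. The number of P450 genes with a brightest probe of 100 or more was 7, 12 and 10 on the arrays labelled WT and 19, 6 and 13 on those labelled Chrm3-/-.

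All 6 listed markers of differentiated absorptive colonocytes were highest on Chrm3-/- replicate 1, and 4 of them, *Car1*, *Car4*, *Aqp8* and *Ceacam20*, were lowest on Chrm3-/- replicate 2. *Car4*, a surface carbonic anhydrase, read 102, 115 and 227 in arrays labelled WT and 4390, 15.7 and 308 in those labelled Chrm3-/-. *Aqp8*, a water channel, read 28.9, 49.2 and 74.7 against 2466, 7.8 and 64.6. *Slc26a3*, the chloride exchanger, read under 2, 11.7 and 22.7 against 271, under 2 and 23.0, and was thus below background on WT replicate 1 as well. *Slc37a2* was lowest on WT replicate 2, with 15.7, 13.1 and 24.6 against 191, 16.8 and 25.1. The summed intensity of the 6 listed markers, all with a probe and 5 of them above 2 on all arrays, was 1274 to 5448 in WT and 25282, 474 and 1382 in Chrm3-/- by label. Other lists also peaked on replicate 1: smooth muscle markers summed to 36877 there and to 7701 to 14723 elsewhere, enteroendocrine markers to 16244 against 763 to 5269, T cell markers to 3314 against 55.6 to 722, and B and plasma cell markers to 2460 against 39.3 to 499. Goblet markers summed to 73414 against 19763 to 53120. Not every list peaked there: fibroblast markers summed to 8997 against 8941 to 15765, and endothelium markers to 592 against 375 to 705. The sum of hepatocyte markers was highest on Chrm3-/- replicate 2, at 8303, of which *Ttr* alone gave 8245. *Lgr5*, a crypt stem cell marker, was under 2 on Chrm3-/- replicate 1 and read 107 to 407 on the rest. The part of these cell types in the P450 values was not tested.

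**Figure D4:**
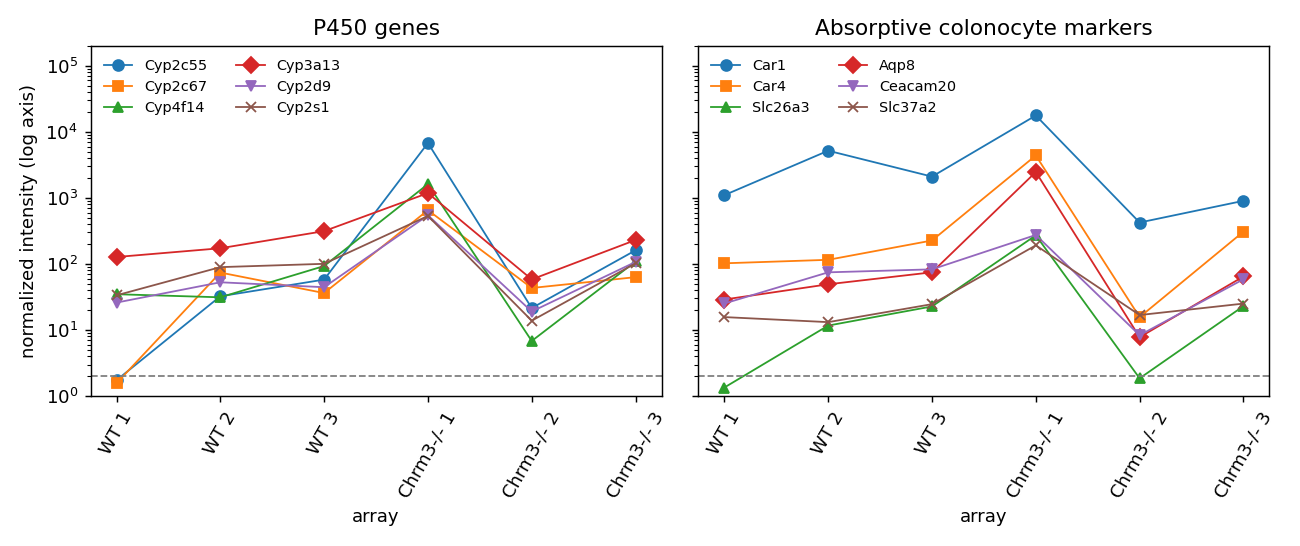
Normalized intensity (log axis) on each array of 6 P450 genes (left), picked after their values were seen because they were highest on Chrm3-/- replicate 1, and of the 6 absorptive colonocyte markers (right); lines only join the points of a gene, and the dashed line marks 2. *Cyp2c55* and *Car4* read 6771 and 4390 on Chrm3-/- replicate 1 and 21.5 and 15.7 on replicate 2.

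Probes of the same gene did not all rank the arrays alike. The 3 probes each of *Cyp27a1* and *Cyp3a13* put the same array highest and the same array lowest, and all 4 *Cyp2c65* probes put Chrm3-/- replicate 1 highest. At the third *Cyp3a13* probe the low end was near background, so its lowest array is not clear. For *Cyp4f16* the brightest probe was nearly level over the arrays, whereas the dimmer ones were highest on Chrm3-/- replicate 1, and the second probes of *Cyp2b10*, *Cyp2c67*, *Cyp2d22* and *Cyp39a1* stayed at or near background.

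**Figure D5:**
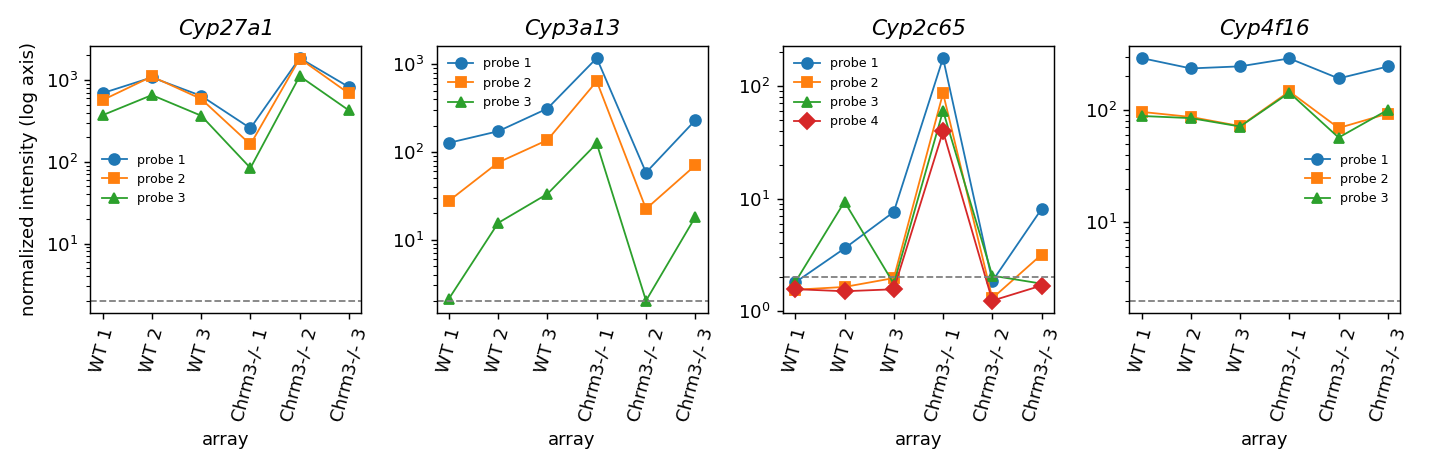
Normalized intensity (log axis) of every probe of *Cyp27a1*, *Cyp3a13*, *Cyp2c65* and *Cyp4f16* on the 6 arrays, numbered from the brightest; lines only join the points of a probe, and the dashed line marks 2. The *Cyp27a1* probes are lowest on Chrm3-/- replicate 1 (257, 163 and 83.9) and those of *Cyp2c65* highest there (177, 86.3, 60.2 and 39.5).

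Genes that work with P450 enzymes were read from lists, and none of their tested probes passed the adjusted threshold in limma. Among electron donors and heme supply, 9 of 13 listed genes were tested, with 6 fold changes above 0 and 3 below and a median log2 fold change of 0.04. *Cyb5r3*, the reductase of cytochrome b5, read 1559, 1712 and 1571 in arrays labelled WT and 1112, 1086 and 1365 in those labelled Chrm3-/-, without overlap, with -0.43 on the log2 scale (limma standard error 0.15, adjusted p = 0.936). *Alas1*, the first enzyme of heme synthesis, read 2353, 2307 and 2268 against 3467, 1486 and 2492. Among nuclear receptors and factors that control P450 genes, 18 of 23 were tested, 11 above 0 and 7 below, with a median of 0.04 (-0.11 without Chrm3-/- replicate 1). *Hnf4a*, a factor of liver and gut epithelium, read 808, 1439 and 1822 against 2836, 1681 and 2301, with 0.77 on the log2 scale (limma standard error 0.33, adjusted p = 0.991). *Srebf2*, which drives cholesterol synthesis genes, read 428, 527 and 444 against 267, 344 and 332, without overlap, with -0.50 on the log2 scale (limma standard error 0.18, adjusted p = 0.933). *Rxrb*, of the same list, read 586, 539 and 584 against 655, 697 and 786, also without overlap. Its log2 fold change was 0.30 (limma standard error 0.15, adjusted p = 0.991).

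In the Ah receptor pathway 4 of 8 genes were tested, 3 above 0 and 1 below, with a median of 0.07 (-0.24 without Chrm3-/- replicate 1). Of 9 enzymes that act beside P450s, all tested, 4 were above 0 and 5 below, with a median of -0.27. *Sqle*, the squalene epoxidase that acts upstream of *Cyp51*, read 1018, 1528 and 1730 in arrays labelled WT and 1050, 787 and 985 in those labelled Chrm3-/-, with -0.55 on the log2 scale (limma standard error 0.23, adjusted p = 0.991). *Adh1*, an alcohol dehydrogenase, was highest on Chrm3-/- replicate 1 and lowest on replicate 2, with 945, 2108 and 2095 against 9496, 408 and 2582. *Ephx1*, the microsomal epoxide hydrolase, read 1554, 615 and 848 against 781, 961 and 604.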

How the data were processed

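Colon tumor RNA of 6 mice was hybridized to Illumina mouse BeadChips, 3 arrays labelled WT and 3 labelled Chrm3-/-. The deposited values are intensities on a linear scale, which the authors normalized by cubic splines without background subtraction. All 6 arrays share 1 distribution of these values, which hides changes in total RNA. The 6 columns of the table before normalization carry names that no sample label matches and were not used. The number of arrays limits the precision.

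Gene names came from the platform's annotation, with 1 symbol for 34885 probes, several for 18 and no entry for 10378. All 82 P450 genes matched RefSeq GRCm38.p6, which holds 95 symbols of this form. The other 13, *Cyp2w1* and *Cyp19a1* among them, were not analysed here. For a gene with several probes, the probe with the highest mean is given unless stated. Intensities were analyzed as log2(value + 50), a scale that understates changes of dim probes. The brighter part of the probes, from the median of the mean log2 value upward (22641 of 45281), was fitted with genotype as the only term in limma 3.58.1 (R 4.3.3) by lmFit and eBayes with a trend, and two-sided p-values received the Benjamini-Hochberg adjustment over all tested probes, with a threshold of 0.05. The step was tested on simulated data. Levels were tabulated with pandas 2.3.3 and numpy 2.4.6 (Python 3.11.15) and plotted with matplotlib 3.10.9.

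The members, the offset, the filter, the gene lists and the cell markers were chosen with earlier results of these data known. Named were *Cyp2e1*, genes with a mean of at least 100, genes whose arrays did not overlap, the 5 with the largest fold change in each direction, and a list of known P450 genes. Other values were named after they had been seen. No genes resembling *Cyp2e1* were sought, since it was above background on fewer than 4 arrays. Alternatives were other offsets, plain log2, other filters, no trend, arrays centred on their medians, a replicate block, the methods' t-test, other background limits and leaving out each array.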

Additional observations from a re-analysis of the deposited data

How the results depend on the processing

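The count of P450 probes that passed was 0 under every offset, filter, variance model and centring tried, with the replicate block and with each array left out. The methods' t-test without adjustment gave 1. The count over all probes, 28 in the main analysis, was 45 with plain log2, 12 with no filter, 1 with the replicate block, 9 by the adjusted and 1238 by the unadjusted t-test, and 4 to 31 with an array left out (4 without WT replicate 3 or Chrm3-/- replicate 3, 5 without WT replicate 2, 6 without WT replicate 1). The median log2 fold change of tested P450 probes was 0.43 over the 18 probes with a mean of at least 100, 0.10 with the replicate block, and -0.05 to 0.20 with an array left out. The number of P450 genes above background on all arrays was 16 at a limit of 10 and 8 at a limit of 50. Among 281 alternative values of single named genes, 270 kept their direction and side of the threshold and 11 turned direction, all with an array left out. Their ranges of log2 fold change were -0.89 to 0.12 for *Cyp2e1*, -0.69 to 0.63 for *Cyp27a1*, -0.060 to 0.28 for *Cyp4v3*, -0.077 to 0.72 for *Cyp2d22*, -0.25 to 1.08 for *Cyp2d34*, -0.29 to 1.31 for *Cyp2s1*, -0.48 to 1.27 for *Cyp3a13*, -0.066 to 2.37 for *Cyp4f14* and -0.20 to 0.046 for *Cyp4f16*. Settings that left out arrays or probes rest on fewer of them, and the cause of the changes was not tested. Same-numbered arrays of the genotypes deviated with correlations of -0.15, -0.03 and 0.02, and differently numbered ones with -0.14 to 0.15. No pairing by number was seen, but 3 arrays per genotype cannot decide whether the mice were paired.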

Other observations

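Both P450 genes of prostanoid synthesis, whose symbols lie outside the Cyp form, were above background on all arrays. *Tbxas1*, the thromboxane synthase of platelets and macrophages, read 114, 88.3 and 78.0 in arrays labelled WT and 62.3, 39.9 and 40.5 in those labelled Chrm3-/-, without overlap, with -0.56 on the log2 scale (limma standard error 0.18, unadjusted p = 0.0197, adjusted p = 0.913). *Ptgis*, the prostacyclin synthase, read 16.4, 72.3 and 33.8 against 122, 30.4 and 60.2, with 0.39 on the log2 scale (limma standard error 0.34, adjusted p = 0.991). The summed intensity of 5 macrophage markers was 4467 to 7115 in WT and 10250, 3266 and 6989 in Chrm3-/- by label, and that of 6 fibroblast markers was 12229 to 15765 and 8941 to 9585. Their part in these values was not tested.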
